A study of Mus musculus with 12 samples.

Results

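The trailers of alanine, asparagine and cysteine tRNA genes gave 335 distinct fragment sequences and 5146 reads in mouse liver, of 87699 sequences and 1705883 reads in the whole table of tRNA-derived small RNAs. They are fragments of the tRF-1 type whose listed precursors were all pre_tRNA-Ala-AGC, pre_tRNA-Ala-CGC or pre_tRNA-Ala-TGC, all pre_tRNA-Asn-GTT, or all pre_tRNA-Cys-GCA. The rule used the precursor names and the fragment type, and no read count. The table held 2188 tRF-1 sequences with 59391 reads in all, of which 1765 sequences and 52730 reads came from other nuclear precursors. Cysteine precursors gave 149 sequences with 3027 reads, alanine precursors 88 sequences with 1196 reads and asparagine precursors 98 sequences with 923 reads. A further 17 tRF-1 sequences, with 38 reads, were listed under another family or mitochondria as well and were left out.

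A nuclear tRNA gene is transcribed by RNA polymerase III, which stops in a run of T bases shortly after the end of the tRNA. The transcript therefore carries an extra 3′ piece, the trailer, which RNase Z (ELAC2 in mammals) cuts off so that the CCA end can be added. A tRF-1 is such a released trailer: it begins right after the tRNA and ends in the U run, so it shares no base with the mature tRNA, and its sequence differs from gene to gene even where the tRNAs are identical. A read of a tRF-1 can thus name the single gene that was transcribed.

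The livers came from male mice of 8 to 12 weeks on a B6D2F1/Crl background, which stems from a hybrid of 2 inbred strains. By the study's methods the knockout line was crossed into this background and kept by mating heterozygotes. The mice need not be uniform F1 hybrids, and the genotypes may differ in strain background. The knockout mice were NSun2-/- (NS-KO), made by a CRISPR/Cas9 deletion in an early exon of NSun2 and present in every cell of the animal. NSUN2 puts a methyl group on cytosines of many tRNAs. The wild type (WT) mice carried intact NSun2. Livers of both genotypes were taken uninjured (D0), on day 3 (D3) after a single injection of CCl4, or on day 27 (D27) after repeated injections. CCl4, a solvent that hepatocytes convert to a toxic radical, was diluted to 40% in corn oil, and each injection put 2 mL per kg of body mass into the peritoneum. Each of the 6 groups had 2 libraries of RNAs of 14 to 40 nt. The study's methods describe the libraries of a group as independent biological replicates. Its legends count 2 mice in a panel and also speak of 2 duplicates in each group. The labels do not say which mouse gave which library. The SDs and tests here treat the libraries as independent, which was not tested. Both libraries of each NS-KO group matched at the variable trailer bases described at the end. If the libraries of a group shared a mouse, the SDs and p-values would not measure the spread between mice. Whole liver was sequenced, in which fewer cells of a type and less RNA per cell cannot be told apart, and NSun2 mRNA and the marker mRNAs of liver are not measured in RNAs of this size.

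The 12 libraries held 46937 to 275568 reads, so that 1 read stood for 3.63 to 21.3 CPM, the usual normalisation of reads by the library total. tRF-1s of all tRNAs took 4.30% to 10.75% of the reads in NS-KO livers and 1.12% to 7.69% in WT livers. The replicate 1 library of WT at D3 had the 7.69% and stood apart from the other 5 WT libraries, which had at most 2.69%. The tRF-5c type, a class of 5′ fragments of tRNAs, took 12.5% to 30.4% in NS-KO livers and 35.6% to 71.5% in WT livers. CPM were therefore scaled by TMM factors of 0.429 to 1.83, which centre the fragment sums of each library on the bulk of the others, and the share of a family among all tRF-1 reads is given beside them.

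Of the 109 precursors of these tRNAs in the table, only 14 gave a tRF-1 read: 1 of 23 for Ala-AGC, 1 of 9 for Ala-CGC, 1 of 10 for Ala-TGC, 6 of 12 for Asn-GTT and 5 of 55 for Cys-GCA. Reads shorter than 14 nt were not in the table, and in 42 of the 109 trailers the first run of 4 T bases ended before base 14. It ended at base 14 or later in 48 trailers, 40 of them of Cys-GCA, and 19 trailers had no such run in the 40 bases listed. Each family rested on 1 or 2 genes. Ala-CGC-2-1 gave 93.2% of the alanine reads, Cys-GCA-3-3 gave 89.8% of the cysteine reads, and Asn-GTT-3-9 and Asn-GTT-3-8 gave 55.6% and 42.8% of the asparagine reads.

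The trailers of the 6 genes with the most reads are shown as the table lists them, from the first base after the tRNA to the end of the first run of at least 4 T bases, which is in capitals. T stands for U of the RNA.
Ala-CGC-2-1: agcagccggaattctgTTTTT
Ala-TGC-3-1: aacggctaccgcctaccTTTT
Asn-GTT-3-9: gtctcggccTTTTTTTTTTTTTTTT
Asn-GTT-3-8: accacagcgacTTTTT
Cys-GCA-3-3: agcaggctcactcTTTT
Cys-GCA-3-2: tggtgggtgcatatgTTTTT

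On build GRCm38.p6 the tRNA of Ala-CGC-2-1 lies at chr2:57182078-57182149 (RefSeq n-TAcgc8), within the span of the long non-coding gene 4930555B11Rik. Ala-TGC-3-1 is at chr11:48834429-48834500 (n-TAtgc9), within the span of the protein-coding gene Trim7. Asn-GTT-3-8 is at chr10:80249159-80249232 (n-TNgtt7), within the span of Ndufs7, a gene for a subunit of mitochondrial complex I. Asn-GTT-3-9 at chr11:97702449-97702522 (n-TNgtt8), Cys-GCA-3-2 at chr11:97797072-97797143 (n-TCgca56) and Cys-GCA-3-3 at chr11:97988246-97988317 (n-TCgca55) overlap no other annotated gene. These 3 lie in the same stretch of the chromosome, with 94.62 kb between Asn-GTT-3-9 and Cys-GCA-3-2. Whether the spans that hold a tRNA gene are intronic or exonic at that place was not examined here. Of the remaining 8 genes, Cys-GCA-3-1 had 14 tRF-1 reads and the others had 1 to 7 each. The only Ala-AGC gene with tRF-1 reads, Ala-AGC-2-2, had 2, and its sum was too small to be tested.

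The tRF-1s of a gene begin at the same base by definition, and the frequent ones differed in how many T bases they kept. The most frequent sequence of 5 of these genes and the next most frequent of Cys-GCA-3-3 are shown with the closing T run in capitals.
Ala-CGC-2-1, 198 reads: agcagccggaattctgTTT
Ala-TGC-3-1, 34 reads: aacggctaccgcctaccTTT
Asn-GTT-3-9, 266 reads: gtctcggccTTTTT
Asn-GTT-3-8, 112 reads: accacagcgacTTTT
Cys-GCA-3-3, 1206 reads: agcaggctcactcTTT
Cys-GCA-3-3, 491 reads: agcaggctcactcTTTT

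The Cys-GCA-3-3 trailer was thus read mostly as 3 or 4 T bases after a closing C, and 62.5% of its tRF-1 reads had 16 nt and 30.0% had 17 nt. In Ala-CGC-2-1, 43.1% of the reads had 19 nt, 27.7% had 20 nt and 24.5% had 18 nt. Asn-GTT-3-9 was at the lower limit of the size range: 70.4% of its reads had 14 nt, so shorter products of this gene would not be in the table. Its trailer carries a T run of 16 bases, and its reads held mostly the first 5 of them.

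**Figure D1:**
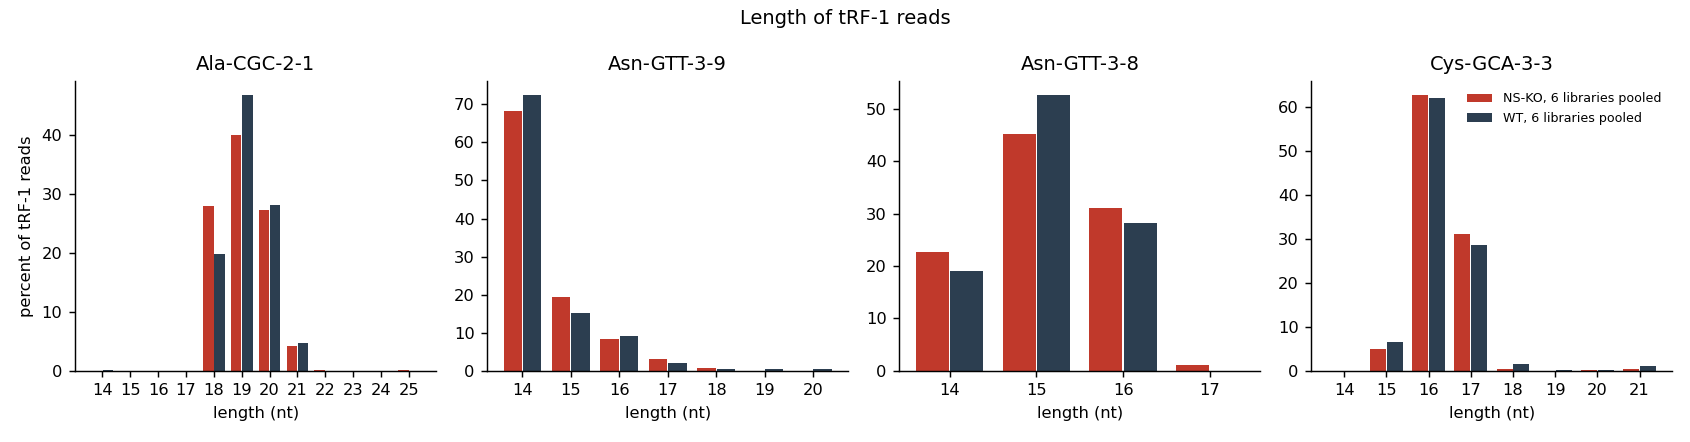
Length of tRF-1 reads (x axis, nt) as a percentage of the tRF-1 reads of 4 genes (y axis), with the 6 NS-KO libraries pooled (red) and the 6 WT libraries pooled (dark). Cys-GCA-3-3 peaks at 16 nt, Ala-CGC-2-1 at 19 nt and Asn-GTT-3-9 at 14 nt in both genotypes.

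The genes differed in where reads inside the trailer began. At Asn-GTT-3-9, 513 of 520 reads (98.7%) were tRF-1s, which begin at the first trailer base, and at Asn-GTT-3-8 this was 395 of 399 (99.0%). Reads shorter than 14 nt were not in the table, and 70.4% of Asn-GTT-3-9 and 20.8% of Asn-GTT-3-8 tRF-1 reads had 14 nt. Such products begun 1 base later would be missing, so the shares of both Asn-GTT genes cannot be compared with those of the other genes. Cys-GCA-3-3 had 2717 of 2982 (91.1%), Cys-GCA-3-2 293 of 363 (80.7%) and Ala-TGC-3-1 79 of 101 (78.2%). Ala-CGC-2-1 stood apart, with 1115 tRF-1s among 3704 reads (30.1%). There, 2313 reads (62.5%) began 1 base later, at the G of the second position, and were listed as type Other. The share of reads at the second base was 63.2% ± 4.52 in NS-KO livers and 60.6% ± 3.50 in WT livers (SD, n = 6 each; exact permutation test, two-sided, p = 0.264 and 0.616 after adjustment over 14 measures). For Cys-GCA-3-3 it was 6.48% ± 2.97 in NS-KO livers and 7.65% ± 1.75 in WT livers (SD, n = 6 each; exact permutation p = 0.455). Another Cys-GCA gene, Cys-GCA-3-4, which lies 0.677 kb from Cys-GCA-3-3, began at the second base in 179 of 220 reads and gave 2 tRF-1s.

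**Figure D2:**
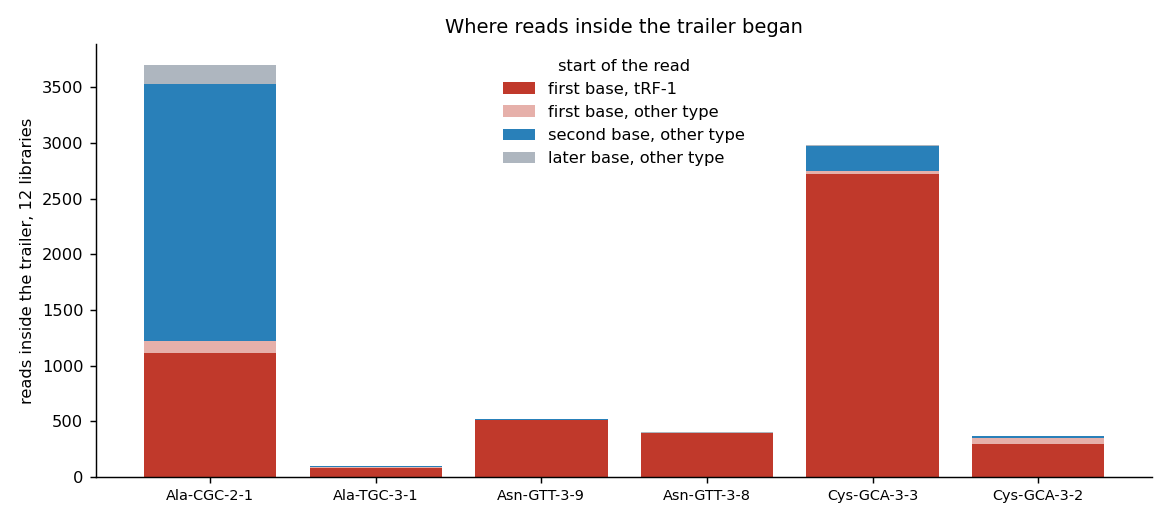
Reads inside the trailer of 6 genes (x axis), summed over the 12 libraries (y axis, reads) and divided by the base at which they began and their listed type. Ala-CGC-2-1 has 2313 reads from the second base and 1115 tRF-1s, whereas the other 5 genes are mostly tRF-1s.

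NS-KO was set against WT to ask how loss of NSun2 changes the trailers, first over the 3 days together. Cys-GCA tRF-1s were 1.47-fold and Ala-CGC tRF-1s 1.58-fold higher in NS-KO livers, and Ala-TGC tRF-1s, a group of 79 reads, 1.59-fold higher. Ala-TGC entered the test only through NS-KO libraries, so its call is no support for a difference. Asn-GTT tRF-1s did not pass. With library size only in place of TMM factors all 4 sums passed, Asn-GTT with a log2 fold change of 1.03 (adjusted p = 0.00721), Cys-GCA with 1.42, Ala-CGC with 1.504 and Ala-TGC with 1.27. In that setting the median of all sums was 0.84. With reads outside tRF-5c as the total, Ala-TGC was too low to be tested and none of the other 3 sums passed. With perfect matches only, fewer sums passed than with all reads. The calls thus depend on the processing. Of the 281 sums by type and isodecoder that were tested, 42.7% passed in this comparison (limma, adjusted p under 0.05, either direction), and 3 of the 4 sums described here did, all higher. Their median log2 fold change was 0.61, beside 0.12 over all 281 sums.

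Cys-GCA tRF-1s came to 2550 and 3246 TMM-scaled CPM in NS-KO livers at D0, 2697 and 2736 at D3, with 1808 and 1666 at D27, against 1420 and 1459 in WT livers at D0, 2469 and 1871 at D3, with 1423 and 1295 at D27. Both NS-KO libraries lay above both WT libraries on each day, most widely at D0, although the D27 values in NS-KO livers were below those of WT at D3. With 2 libraries in a group this is no evidence of a difference, and the share of all sums separated in this way was not counted. In CPM without TMM factors the genotypes overlapped at D3, with 2506 and 2592 in NS-KO livers and 4183 and 1427 in WT livers. D0 passed the test by day, while D3 and D27 did not (limma adjusted p = 0.298 and 0.307). The mean was 2451 ± 602 in NS-KO livers and 1656 ± 444 in WT livers (SD, n = 6 each), a log2 fold change of 0.56 (SE 0.12, limma adjusted p = 0.00582).

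Ala-CGC tRF-1s, all from the gene Ala-CGC-2-1, came to 1014 and 1267 TMM-scaled CPM in NS-KO livers at D0, 588 and 904 at D3, with 1144 and 1095 at D27, against 543 and 650 in WT livers at D0, 608 and 576 at D3, with 774 and 550 at D27. The genotypes did not overlap at D0 and D27 and overlapped at D3. With 2 libraries in a group this is no evidence of a difference, and the share of all sums without overlap was not counted. Neither day passed (limma adjusted p = 0.0511 at D0 and 0.0851 at D27). Over the days the log2 fold change was 0.66 (SE 0.16, limma adjusted p = 0.00849), with means of 1002 ± 237 in NS-KO livers and 617 ± 86.5 in WT livers (SD, n = 6 each).

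Ala-TGC tRF-1s, from Ala-TGC-3-1, were few: 2 and 3 reads in NS-KO livers at D0, 31 and 12 at D3, with 3 and 5 at D27, against 4 and 6 in WT livers at D0, 3 and 3 at D3, with 4 and 3 at D27. As TMM-scaled CPM this was 151 and 99.5 in NS-KO livers at D3 and 21.7 and 20.3 in WT livers at D3, while the other 8 libraries lay between 18.6 and 52.7. A sum was tested if at least 2 libraries reached the CPM of 10 reads in a library of median size. Ala-TGC reached this only in both NS-KO libraries at D3 and in NS-KO D27 replicate 2. It was thus tested only through the genotype in which it is high, and its calls are no support for a difference. The log2 fold change over the days was 0.67 (SE 0.22, limma adjusted p = 0.0339). It rested on D3: without the D3 libraries it was 0.10 (adjusted p = 0.820), a setting in which Ala-CGC and Cys-GCA had 0.91 and 0.75 and passed. It also no longer passed when any 1 of 9 libraries was left out, namely all 4 D27 libraries, NS-KO D0 replicate 2, NS-KO D3 replicate 1, WT D0 replicate 1 and both D3 libraries of WT, with adjusted p up to 0.0933.

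Asn-GTT tRF-1s came to 642 and 750 TMM-scaled CPM in NS-KO livers at D0, 714 and 978 at D3, with 311 and 486 at D27, against 667 and 721 in WT livers at D0, 963 and 502 at D3, with 375 and 246 at D27. The genotypes overlapped on each day. The means were 647 ± 230 in NS-KO livers and 579 ± 258 in WT livers (SD, n = 6 each), and the log2 fold change was 0.20 with a 95% interval of -0.27 to 0.67 (limma adjusted p = 0.455).

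**Figure D3:**
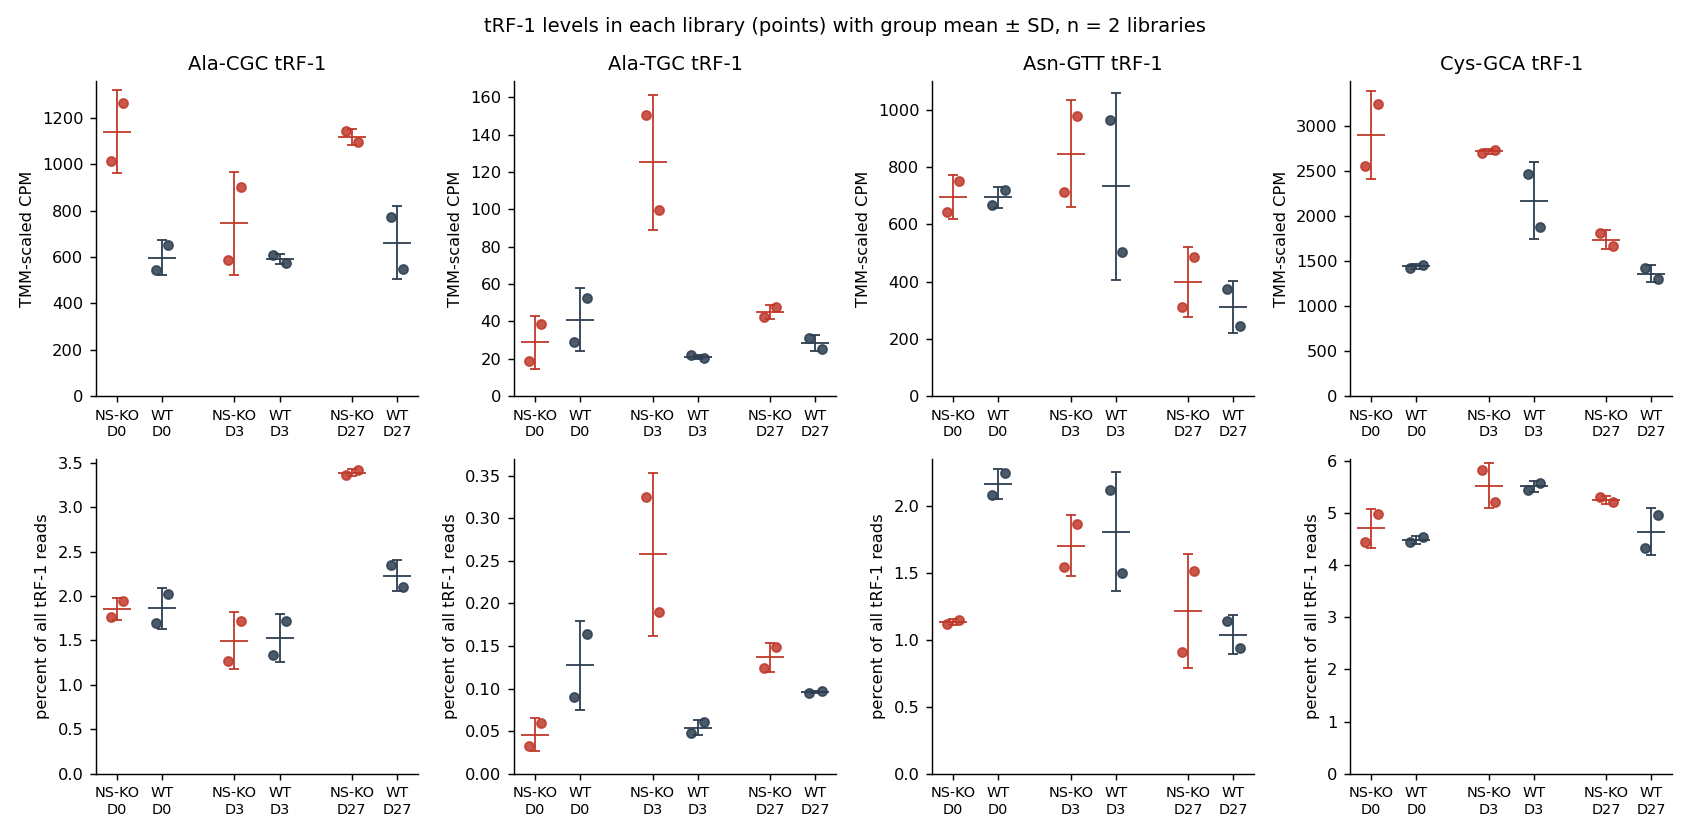
tRF-1 levels of Ala-CGC, Ala-TGC, Asn-GTT and Cys-GCA in each library (points) with the mean and SD of 2 libraries (bars), NS-KO in red and WT in dark at D0, D3 and D27. The upper row gives TMM-scaled CPM and the lower row the percentage of all tRF-1 reads of the library; Ala-TGC reaches 151 CPM in NS-KO at D3, and Cys-GCA keeps between 4.33% and 5.83% of tRF-1 reads in all 12 libraries.

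Gene by gene, Cys-GCA-3-3 had a log2 fold change over the days of 0.59 (SE 0.18, adjusted p = 0.0264) and Ala-CGC-2-1 of 0.66 (SE 0.21, adjusted p = 0.0266), and both passed among 625 gene sums, of which 33.0% did. Cys-GCA-3-2 had 0.25 (adjusted p = 0.454), Ala-TGC-3-1 0.66 (adjusted p = 0.0656), Asn-GTT-3-9 0.20 (adjusted p = 0.577) and Asn-GTT-3-8 0.13 (adjusted p = 0.775). The split of the cysteine reads was nearly even between genotypes: Cys-GCA-3-3 took 90.9% ± 1.65 of the reads of both Cys-GCA genes in NS-KO livers and 88.7% ± 2.80 in WT livers (SD, n = 6 each; exact permutation p = 0.119). Asn-GTT-3-9 took 59.3% ± 9.44 of the reads of both Asn-GTT genes in NS-KO livers and 58.3% ± 12.3 in WT livers (SD, n = 6 each; exact permutation p = 0.866). When the table was summed by amino acid in place of isodecoder, none of the 3 families passed among 172 sums, of which 37.8% did: Ala had a log2 fold change of 0.42 (adjusted p = 0.0613), Cys 0.28 (adjusted p = 0.103) and Asn -0.08 (adjusted p = 0.810).

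The genotypes were also compared on each day; whether the differences changed between days is given with the tests of the change. At D0, where 14.6% of the 281 sums passed, Cys-GCA alone of the 4 sums passed, with a log2 fold change of 0.99 (SE 0.22, limma adjusted p = 0.0232), and Ala-CGC had 0.91 (SE 0.27, adjusted p = 0.0511). Asn-GTT had 0.00 (adjusted p = 0.996), with a 95% interval of -0.82 to 0.82, and Ala-TGC -0.35 (adjusted p = 0.570). The Cys-GCA call at D0 was lost when any 1 of the 4 D0 libraries was left out, with log2 fold changes of 0.82 to 1.16 and adjusted p of 0.0554 to 0.154. At D3, where 29.2% of the sums passed, Ala-TGC alone of the 4 passed, at 3.72-fold and a log2 fold change of 1.90 (SE 0.38, adjusted p = 0.00392). It entered the test only through NS-KO libraries, so this call is no support for a difference. Ala-CGC had 0.29 (adjusted p = 0.470), Cys-GCA 0.34 (adjusted p = 0.298) and Asn-GTT 0.26 (adjusted p = 0.639), which turned to -0.56, -0.54 and -0.60 with reads outside tRF-5c as the total. At D27, where 13.2% of the sums passed, none of the 4 did: the log2 fold changes were 0.76 for Ala-CGC (adjusted p = 0.0851; unadjusted p = 0.020), 0.46 for Ala-TGC (adjusted p = 0.457), 0.35 for Cys-GCA (adjusted p = 0.307) and 0.34 for Asn-GTT (adjusted p = 0.576).

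The days were then compared within each genotype, to follow the trailers after injury. At D3 against D0 in NS-KO livers, where 23.1% of the sums passed, Ala-TGC rose 3.17-fold (log2 fold change 1.66, SE 0.38, limma adjusted p = 0.00929). It entered the test only through NS-KO libraries of D3 and D27, so this call is no support for a rise. Ala-CGC had -0.63 (adjusted p = 0.138), and passed at -1.18 (adjusted p = 0.0387) with reads outside tRF-5c as the total. Asn-GTT had 0.26 (adjusted p = 0.631) and Cys-GCA -0.08 (adjusted p = 0.808). The Ala-TGC call was lost without NS-KO D0 replicate 1 (adjusted p = 0.0746) and without NS-KO D3 replicate 1 (adjusted p = 0.0567). In WT livers, where 0.356% of the sums passed, none of the 4 did: Cys-GCA had 0.57 (unadjusted p = 0.0245, adjusted p = 0.480), Ala-TGC -0.58 (adjusted p = 0.622), Asn-GTT 0.01 (adjusted p = 0.988) and Ala-CGC -0.01 (adjusted p = 0.988).

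The change from D0 to D3 differed between the genotypes for Ala-TGC, by 2.25 on the log2 scale (SE 0.54, limma adjusted p = 0.0192), in a test that 12.8% of the sums passed. Without NS-KO D0 replicate 1, NS-KO D3 replicate 1, NS-KO D3 replicate 2, WT D0 replicate 2 or WT D3 replicate 1 it was 1.92 to 2.27, with adjusted p of 0.0606 to 0.0893. With library size only it was 1.16 (adjusted p = 0.344). Ala-TGC entered the test only through NS-KO libraries, so its call is no support for a difference. For Cys-GCA the difference was -0.66 (SE 0.30, adjusted p = 0.179), and -2.31 (adjusted p = 0.0249) with library size only. It was -0.62 for Ala-CGC (adjusted p = 0.338) and 0.26 for Asn-GTT (adjusted p = 0.809).

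Asn-GTT had its lowest values at D27 in both genotypes. The log2 fold change of D27 against D0 was -0.81 in NS-KO livers (SE 0.37, limma adjusted p = 0.299) and -1.15 in WT livers (SE 0.37, adjusted p = 0.171; unadjusted p = 0.0109). Cys-GCA had -0.72 in NS-KO livers (SE 0.22, adjusted p = 0.126; unadjusted p = 0.0076) and -0.08 in WT livers (adjusted p = 0.870). None of these passed. In NS-KO livers 0.356% of the 281 sums passed D27 against D0, and in WT livers 0.00% did by limma (0 sums, with 40 at an unadjusted p under 0.05 and 0 by voom). The test of the difference of the D27 change between genotypes likewise gave 0.00% (0 sums by limma, 31 unadjusted, 0 by voom), with -0.64 for Cys-GCA (adjusted p = 0.414) and 0.34 for Asn-GTT (adjusted p = 0.778).

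**Figure D4:**
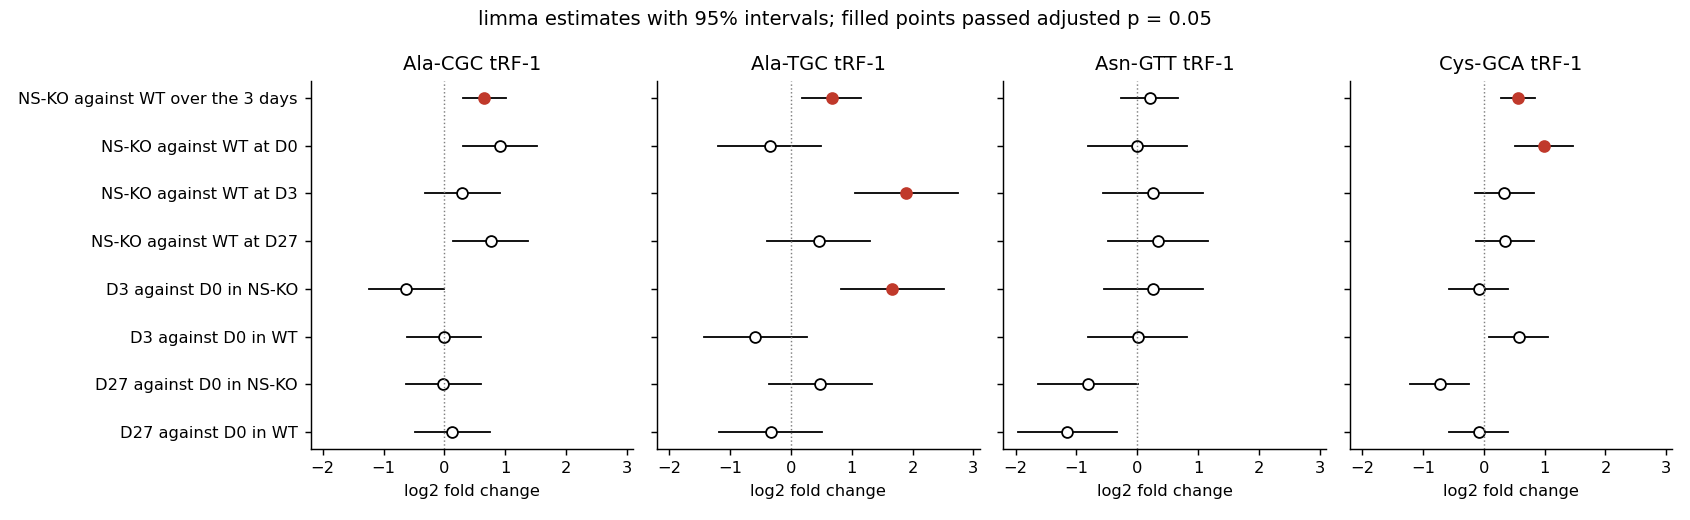
log2 fold changes (x axis) of the 4 tRF-1 sums with 95% intervals from limma for 8 comparisons (rows), filled where the adjusted p was under 0.05. Cys-GCA and Ala-CGC are filled over the 3 days, Cys-GCA also at D0, and Ala-TGC over the 3 days, at D3 and at D3 against D0 in NS-KO.

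As a share of all tRF-1 reads, cysteine was the highest of the 3 families in each library, while asparagine was above alanine in some WT libraries and below it in every NS-KO library. The cysteine trailers took 5.16% ± 0.451 of the tRF-1 reads in NS-KO livers and 4.88% ± 0.534 in WT livers (SD, n = 6 each), and every library lay between 4.33% and 5.83%. Alanine trailers took 2.40% ± 0.886 in NS-KO livers and 1.97% ± 0.388 in WT livers (SD, n = 6 each), with the widest gap at D27, 3.49% and 3.57% in NS-KO livers against 2.45% and 2.20% in WT livers. Asparagine trailers took 1.35% ± 0.351 in NS-KO livers and 1.67% ± 0.557 in WT livers (SD, n = 6 each). At D0 they took 1.12% and 1.15% in NS-KO livers against 2.08% and 2.25% in WT livers, while the genotypes overlapped at D3 and D27. The shares of single days were not tested, and 2 libraries in a group are no evidence of a difference. None of the 3 shares passed an exact permutation test of 924 arrangements (two-sided, n = 6 each): p = 0.329 for Cys, 0.336 for Ala and 0.253 for Asn, and 0.336 for each after adjustment. The arrangements took no account of the day, here and in the other permutation tests. Differences between days thus counted as spread, and these tests cannot tell whether the genotypes differed within a day. Relative to all tRF-1s, Cys-GCA thus differed by less than its spread between libraries, while its CPM passed the test.

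Few single sequences passed. Of the 335 sequences, 118 reached 20 CPM in at least 1 library and were tested among 22065, so the counts cover these 118 and not all. Over the 3 days none of them passed (limma; 13 at an unadjusted p under 0.05), beside 6.04% of all sequences tested. By voom 15 passed, beside 20.3% of all. The same count of 0 was found at D0 (12 unadjusted, 4 by voom; 0.394% of all by limma, 2.43% by voom), at D27 (10 unadjusted, 4 by voom; 0.331% of all by limma, 3.62% by voom) and at D3 against D0 in WT livers (2 unadjusted, 0 by voom; 0.00% of all, with 748 unadjusted and 0 by voom). At D3, 2 passed, both higher in NS-KO, beside 10.9% of all, and at D3 against D0 in NS-KO livers 1 was higher and 1 lower, beside 11.2% of all.

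Of the 3 sequences that passed, the 2 that were higher in NS-KO at D3 are shown with their closing T run in capitals. tRF-Cys-GCA-007, which did not pass, is shown with them. All of these were synthesised by the study, which picked its tRF-1s by differences between genotypes and between WT at D0 and D3 in these data. Their place in that list is thus no independent support.
tRF-Ala-TGC-001: aacggctaccgcctaccTTT
tRF-Asn-GTT-011: gtctcggccTTTTTTTT
tRF-Cys-GCA-007: agcaggctcactcttttcTT

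tRF-Ala-TGC-001 is the most frequent form of the Ala-TGC-3-1 trailer. It had 1 and 2 reads in NS-KO livers at D0, 16 and 6 at D3, with 0 and 1 at D27, against 1 and 2 in WT livers at D0, 0 and 1 at D3, with 2 and 2 at D27. At D3 it was higher in NS-KO, with a log2 fold change of 2.08 (SE 0.42, limma adjusted p = 0.00672). It reached 20 CPM in no WT library, only in both NS-KO libraries at D3 and in NS-KO D0 replicate 2. It was thus tested only through the genotype in which it is high, and its call is no support for a difference. tRF-Asn-GTT-011, an Asn-GTT-3-9 trailer with 8 T bases, had 3 and 4 reads in NS-KO livers at D3 and 0 in both WT libraries at D3. Among the other 8 libraries, it had 1 read in WT D0 replicate 2 and 1 in WT D27 replicate 1. It reached 20 CPM only in NS-KO D3 replicate 2, so it was tested only through the group in which it is high, and its calls at D3 and at D3 against D0 in NS-KO livers are no support for a difference. Other forms of the same gene that were more frequent had log2 fold changes at D3 of 0.28 (14 nt form, Asn-trailer-1), 0.56 (15 nt form, Asn-trailer-4) and 0.95 (T14C form, Asn-trailer-6), and none passed. tRF-Cys-GCA-007, which reads past the first T run of Cys-GCA-3-3, had 5 reads in all. The sequence that was lower at D3 in NS-KO livers is a form of the Cys-GCA-3-2 trailer with the substitution C10A, counted from 1 at the first trailer base. It had only 2 reads, 1 in each NS-KO library at D0, and reached 20 CPM only in NS-KO D0 replicate 2, where 1 read is 21.3 CPM. It too was tested only through the group in which it is high, and its call is no support for a difference.

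Many reads differed from the listed gene by 1 base, since the authors allowed 1 mismatch. At Cys-GCA-3-3, 67.3% of tRF-1 reads matched exactly and 22.5% had their mismatch at the last base, within the T run. The frequent forms of this kind are shown in lower case with the T run left unmarked.
Cys-GCA-3-3 T17A, 174 reads: agcaggctcactcttta
Cys-GCA-3-3 T16C, 172 reads: agcaggctcactcttc
Cys-GCA-3-3 T16A, 118 reads: agcaggctcactctta
Asn-GTT-3-9 T14C, 42 reads: gtctcggccttttc

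The share of last-base mismatches did not pass a test for any gene. It was 22.9% ± 3.56 of Cys-GCA-3-3 reads in NS-KO livers and 21.8% ± 4.14 in WT livers (SD, n = 6 each; exact permutation p = 0.643), and 20.5% ± 8.96 of Ala-CGC-2-1 reads in NS-KO livers and 13.7% ± 3.36 in WT livers (SD, n = 6 each; exact permutation p = 0.119). For Asn-GTT-3-8 it was 23.9% ± 6.99 in NS-KO livers and 15.9% ± 9.57 in WT livers (SD, n = 6 each; exact permutation p = 0.132). The 2 highest values of Ala-CGC-2-1, 33.3% and 27.8%, were those of NS-KO at D27. Many reads of this gene carry an inner substitution, G16A (below), except in those 2 libraries. Such a read has used the 1 mismatch that was allowed, so it cannot show another at the last base. The last-base shares of Ala-CGC-2-1 are thus not comparable between libraries or genotypes. Mean lengths were close as well, at 16.31 nt for Cys-GCA-3-3 in NS-KO and WT livers alike, and 19.09 nt in NS-KO livers and 19.17 nt in WT livers for Ala-CGC-2-1. Cys-GCA-3-2 reads were longer in NS-KO livers, 18.65 ± 0.19 nt against 18.43 ± 0.06 nt in WT livers (SD, n = 6 each; exact permutation p = 0.0108), but not after adjustment over the 14 measures of ends and lengths (p = 0.152), none of which passed.

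Ala-CGC-2-1 was unlike the other genes in that 41.6% of its tRF-1 reads had a mismatch inside the read and 39.5% matched exactly. Most of the inner mismatches were 1 substitution, G16A, next to the T run. The same 2 forms are shown with this base in capitals.
Ala-CGC-2-1, listed base, 198 reads: agcagccggaattctGttt
Ala-CGC-2-1, G16A, 170 reads: agcagccggaattctAttt

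All precursor reads of the gene that covered base 16, with the first 4 and the last 3 bases of a read left out, were then counted by this base if they matched elsewhere, a position chosen after its values were seen and given with no test. The variant base was read in 100 of 210 and 89 of 179 reads in NS-KO livers at D0 and in 84 of 243 and 91 of 201 at D3. It was read in 0 of 144 and 0 of 197 in NS-KO livers at D27, which allows up to 2.53% and 1.86% (exact 95% limits, counting error only). In WT livers it was read in 52 of 130 and 46 of 142 at D0, 69 of 202 and 52 of 178 at D3, and 66 of 179 and 44 of 120 at D27, or 29.2% to 40.0%. The 2 NS-KO libraries of D27 were thus the only ones of 12 without the variant, and the other 4 NS-KO libraries had 34.6% to 49.7%. The level of Ala-CGC tRF-1s in the same 2 libraries, 1144 and 1095 TMM-scaled CPM, was close to that of NS-KO at D0, where both bases were read. The difference between genotypes at D27 is therefore one between livers that also differ in the sequence of this trailer, and the part of the sequence in the level was not tested. Reads with the variant and a second mismatch could not be counted, so the variant form is undercounted in the libraries that hold it.

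**Figure D5:**
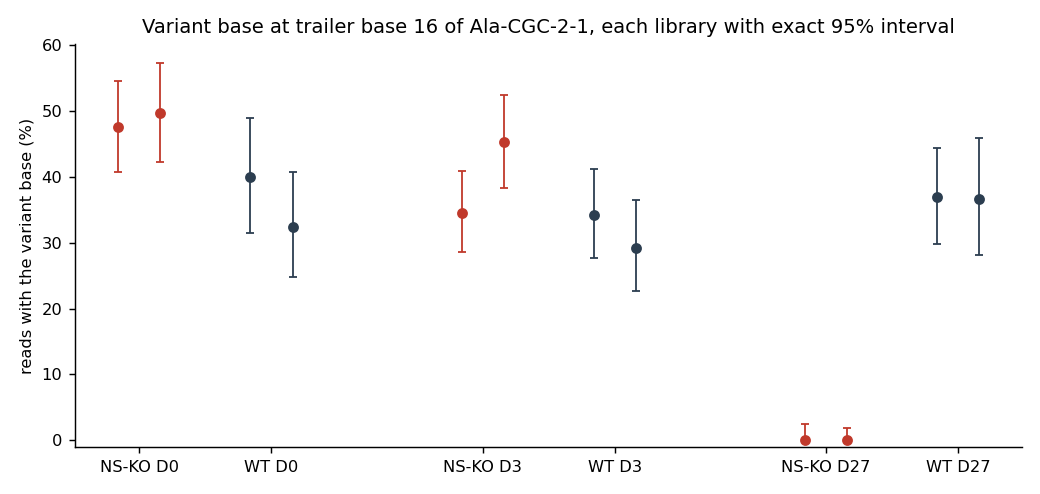
Share of Ala-CGC-2-1 precursor reads with the variant base at trailer base 16 (y axis, percent) in each library by genotype and day (x axis), with exact 95% intervals for counting error. The share is 0 in both NS-KO libraries at D27 and 29.2% to 49.7% in the other 10 libraries.

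Other trailers were examined in the same fit. Over the 3 days, NS-KO livers were higher in 12 and lower in 0 of 19 other nuclear tRF-1 sums, with a median log2 fold change of 0.97, against a median of 0.61 for the 4 sums here. Of all 281 sums, 66 were higher and 54 lower (median 0.12). By day, 4 of the 19 were higher at D0 (median 0.55), 8 at D3 (median 1.12) and 3 at D27 (median 0.92), with 0 lower on each day. Fragments of the mature tRNAs of the same amino acids had other values, and the difference from the trailers was not tested: 3 of 6 sums of 3′ fragments of Ala were lower (median -0.69) and 0 higher, the 1 sum of 3′ fragments of Cys was lower (-1.04), the 1 sum for Asn had 0.12 and did not pass, and 0 of 4 sums of 5′ fragments of Ala passed (median -0.26).

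Across the 12 libraries, the 3 tRF-1 sums most like each of the 4 were found among 22 by Pearson's r of log2 CPM, as a description of points that share library, depth and scaling. For Ala-TGC they were Lys-TTT (0.89), Gln-CTG (0.85) and Gly-CCC (0.85). For Cys-GCA they were Gly-TCC (0.84), Ser-AGA (0.83) and Ile-AAT (0.80). For Asn-GTT they were Arg-TCG (0.77), Arg-ACG (0.71) and Cys-GCA (0.66). Ala-CGC had no close neighbour, with Trp-CCA (0.51), Gly-GCC (0.51) and Arg-ACG (0.47). The r between both alanine sums, Ala-CGC and Ala-TGC, was 0.06.

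Without the WT D3 replicate 1 library, which stood apart, the log2 fold changes over the 3 days were 0.63 for Cys-GCA (limma adjusted p = 0.00626), 0.67 for Ala-CGC (adjusted p = 0.0165), 0.68 for Ala-TGC (adjusted p = 0.0616) and 0.35 for Asn-GTT (adjusted p = 0.186). The calls rest on the scaling. The median of all sums over the 3 days moved by 0.12 in log2 with TMM factors, 0.84 with library size only and -0.04 with reads outside tRF-5c, and the calls ran 66 higher and 54 lower, 144 higher and 18 lower, and 35 higher and 54 lower in these. Relative to that median, Cys-GCA lay 0.44, 0.57 and 0.39 higher, Ala-CGC 0.54, 0.66 and 0.49, and Asn-GTT 0.08, 0.19 and 0.03, in the same order. With reads outside tRF-5c as the total, Ala-TGC was too low to be tested and none of the other 3 sums passed over the 3 days, at D0 or at D3.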

How the data were processed

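Liver RNA of 12 libraries was treated to remove end groups and methyl marks (deacylation, removal of cyclic phosphates, 5′ phosphorylation, demethylation of m1A and m3C), and fragments of 14 to 40 nt were selected and sequenced. The labels place the selection at the RNA and the study's methods at the amplified products. The authors checked reads with FastQC, trimmed them with cutadapt and mapped them by Bowtie, accepting 1 mismatch. Versions are not given in the sources used here. The deposited table lists whole-number read counts of each sequence in each library under every tRNA it matched, a format outside the usual units, and the authors' fragment types were kept. No column belonged to another series, and the authors' own comparisons were not used.

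Each distinct sequence was counted once. Sums by type and isodecoder entered with at least 10 reads and enough reads by the filterByExpr rule (281 sums). Single sequences entered at 20 CPM in at least 1 library. The main test was limma (3.58.1, R 4.3.3) with a trend on log2 CPM, TMM factors, a prior count of 2 and a mean for each group, adjusted by Benjamini-Hochberg over the whole table. edgeR, which the methods name, was not run, because the table could not be declared a plain count table. Values were summarised with Python 3.11.15 and SciPy 1.17.1. The fit was tested on simulated data with known changes. A count of 0 allows up to 3 reads. The exact intervals of the base shares cover counting error only, while the limma intervals of fold changes rest on the spread between libraries.

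Of 439 nuclear precursors, 370 lie exactly on a RefSeq tRNA gene of GRCm38.p6, from which gene names and positions were taken. Named were every tRF-1 sum of the 3 families, the 6 most read sequences of each family, those that passed a test and those the study synthesised, and the 3 sums most alike by correlation. The members and lists were chosen with earlier results of these data known. Alternatives were library size, reads outside tRF-5c, voom weights, other filters and prior counts, perfect matches, each library left out, and the replicate number as a block. Sums of all trailer reads and of single genes were added after the data were seen.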

Additional observations from a re-analysis of the deposited data

Results flagged for a closer look

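The change of Ala-TGC tRF-1s from D0 to D3 differed between the genotypes by 2.25 on the log2 scale in a test of that difference (SE 0.54, limma adjusted p = 0.0192). It rests on 31 and 12 reads in NS-KO livers at D3 and 3 and 3 in WT livers at D3. With library size only it was 1.16 (adjusted p = 0.344). Ala-TGC entered the test only through NS-KO libraries, so its call is no support for a difference.

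Trailer reads outside the tRF-1 type were numerous at 2 alanine genes. At Ala-CGC-2-1, 2313 reads began at the second trailer base, with 121 to 306 in each library, and were listed as type Other. At Ala-AGC-2-1, 1289 reads lay inside the trailer and none was listed as tRF-1. Of these, 518 began at the first base, 732 at the second and 39 later. What the Ala-CGC-2-1 reads add to the comparison of genotypes is given under the setting that counts every trailer read. No such comparison is given for the Ala-AGC-2-1 reads.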

How the results depend on the processing

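Settings were compared by how many of the 4 sums passed and by their log2 fold changes. With library size only, 4 passed over the days (Asn-GTT among them, 1.03), 2 at D0, 0 at D3, 3 at D27, 0 at D3 against D0 in NS-KO and 2 in the difference of the D3 change (Cys-GCA among them, -2.31, but not Ala-TGC, 1.16), and 1 single sequence passed over the days. The direction turned for Ala-TGC at D0 (0.57), Asn-GTT at D3 (-0.0169), Ala-CGC (0.88) and Ala-TGC (0.0072) at D3 against D0 in WT, and Asn-GTT in NS-KO (-0.48). With reads outside tRF-5c, where Ala-TGC failed the filter, 0 passed over the days, at D0, at D3 and in the difference of the D3 change, and 1 passed at D3 against D0 in NS-KO (Ala-CGC, -1.18). Turned were Asn-GTT over the days (-0.0153) and at D0 (-0.0428), Ala-CGC (-0.56), Asn-GTT (-0.60) and Cys-GCA (-0.54) at D3, Ala-CGC at D3 against D0 in WT (0.26) and Asn-GTT in NS-KO (-0.29). With perfect matches only, 1 passed over the days, 1 at D27, 0 at D3 against D0 in NS-KO and 0 in the difference of the D3 change. Turned were Ala-TGC at D0 (0.16) and D27 (-0.32), Ala-CGC at D3 (-0.25) and at D3 against D0 in WT (0.18), Asn-GTT in WT (-0.0311) and NS-KO (-0.0278), and Cys-GCA at D27 against D0 in WT (0.0053). With every trailer read counted, chosen after seeing the data, 2 passed at D0, 0 at D3 against D0 in NS-KO and 0 in the difference; Ala-TGC at D0 (0.12), Ala-CGC at D3 against D0 in WT (0.22) and Asn-GTT there (-0.0194) turned. Voom turned Asn-GTT at D0 (-0.0030), and no filter but 10 reads turned it to -0.0219 and Asn-GTT at D3 against D0 in WT to -0.0153. The causes were not tested.

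For single sequences, voom called 15 over the days and 4 each at D0, D3 and D27. A CPM of 20 in 2 libraries gave 1 over the days, 1 at D3, 4 at D27 and 0 at D3 against D0 in NS-KO, and the filterByExpr rule 5 over the days, 3 at D0, 0 at D3, 5 at D27 and 1 at D3 against D0 in NS-KO. The ratio of NS-KO to WT shares, in log2, was 1.52 for Ala, 0.65 for Asn (turned from -0.31) and 1.14 for Cys as shares of all tRNA reads, and 0.27 for Cys as a share of reads outside tRF-5c.

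With 1 library left out in turn, 0 to 2 sums passed at D0, 0 to 2 at D3 against D0 in NS-KO and 0 to 1 in the difference, and of single sequences 0 to 16 passed over the days, 0 to 16 at D0, 0 to 4 at D3, 0 to 17 at D27, 0 to 2 at D3 against D0 in WT and 2 to 10 in NS-KO. Values that turned ran from -0.11 to 0.14 for Asn-GTT at D0, -0.21 to 0.60 for Ala-CGC and -0.20 to 0.72 for Asn-GTT at D3, -0.13 to 0.12 for Ala-CGC and -0.45 to 0.46 for Asn-GTT at D3 against D0 in WT, and -0.25 to 0.49 for Asn-GTT and -0.39 to 0.0909 for Cys-GCA in NS-KO. Ala-CGC and Cys-GCA over the days and Ala-TGC at D3 passed in each of these fits. The sums had been filtered on all 12 libraries before a library was left out, and Ala-TGC entered only through NS-KO libraries. Replicates share only a number: deviations of same-numbered libraries correlated by -0.295 to 0.5001, with 4 of 15 pairs over 0.1. The replicate block changed no call of the sums (Ala-CGC adjusted p = 0.0124, Ala-TGC 0.0430 and Cys-GCA 0.00958 over the days).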

Other observations

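Single-base variants were looked for in all nuclear trailers after the Ala-CGC-2-1 values had been seen, leaving out the first 4 and the last 3 bases of a read, with at least 50 variant reads and a share of 15% to 85% in all. At Ala-AGC-2-1, an alanine gene with no tRF-1, A20G was read in 0 of 132 reads of NS-KO at D0, 1 of 333 at D3 and 49 of 93 at D27, against 115 of 274 in WT. At Thr-AGT-1-2, A23T was read in 0 of 110, 1 of 143 and 88 of 142 reads of NS-KO at D0, D3 and D27, against 205 of 320 in WT. At His-GTG-2-1, C30T was read in 0 of 248, 198 of 343 and 124 of 216, against 203 of 359 in WT, and at His-GTG-2-3, T16C was read in 0 of 37, 125 of 178 and 80 of 99, against 161 of 210 in WT. Positions are counted from 1 at the first trailer base. WT groups had both bases on each day at all 5 genes, while in NS-KO 1 or 2 of the 3 days had the variant in at most 1 read, on different days for different genes. Both libraries of each NS-KO group matched at all 5 genes: either both held the variant in at most 1 read, or both held both bases. Whether the libraries of a group are independent, as all SDs and tests above assume, was not tested. These values are descriptions with no test.

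Precursor reads that are no tRF-1 were also listed for the 3 families. Reads that join the 3′ end of the tRNA to its trailer numbered 546 for Ala, 180 for Cys and 101 for Asn, and reads that join the leader to the tRNA 213, 81 and 108.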
